A study of Homo sapiens with 4 samples.

Results

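The 10 genes described here encode subunits of the transcription factor AP-1 and its relatives: FOS, FOSB, FOSL1 and FOSL2 of the FOS family, JUN, JUNB and JUND of the JUN family, BATF3, and the small MAF genes MAFF and MAFK. They were selected by gene symbol, with no threshold on their values but with earlier results of these data known, and all 10 were found among the 23459 genes listed in each library. The cells were hTERT RPE-1, a wild type and non-cancerous human line from the retinal pigment epithelium, immortalized with telomerase. All libraries came from cells starved for 48 h in medium with 0.1% serum and then exposed to 200 μM merbarone, a drug that blocks the catalytic cycle of DNA topoisomerase II. There were 2 libraries at 4 h and 2 at 8 h, made from polyadenylated RNA. No untreated cells were analysed here, so every comparison is of 8 h with 4 h of exposure, and time of exposure cannot be told apart from time in low-serum medium. The labels do not say whether the replicates came from separate cultures, while the study calls them biological replicates.

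AP-1 is a dimer of basic leucine zipper (bZIP) proteins, in which a JUN protein pairs with another JUN protein or with a FOS protein and binds short palindromic DNA elements. FOS, FOSB, JUN and JUNB are known as immediate-early genes, which growth factors and stress switch on within minutes through MAP kinases and the serum response factor, whereas FOSL1 and FOSL2 usually follow later and JUND is expressed in resting cells. The small MAF proteins lack a transactivation domain. They pair with CNC proteins such as NRF2 on antioxidant elements, or with each other.

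Of the 10 genes, FOS, MAFF, MAFK and JUND rose between 4 h and 8 h, FOSL2 fell, and FOSB, FOSL1, JUN, JUNB and BATF3 did not pass the test. A gene is said to have risen or fallen where the edgeR adjusted p was below 0.05, and is called a DEG where its absolute log2 fold change (log2FC) was above 1 as well, the thresholds of the study. FOS rose the most, 2.49-fold (95% interval 2.14 to 2.88), followed by MAFF at 2.02-fold (1.81 to 2.25), MAFK at 1.87-fold (1.63 to 2.14) and JUND at 1.63-fold (1.43 to 1.87). FOSL2 fell to 0.839 times its level at 4 h (0.755 to 0.933). With 4 genes higher and 1 lower, 50.0% of the 10 passed, against 38.8% of all 12559 genes tested. In one direction, 19.9% of all genes tested were higher and 18.8% lower. FOS and MAFF were DEGs, where 5.33% of all genes tested were DEGs, 1.45% higher and 3.88% lower. The median log2FC was 0.27 over the 10 genes and 0.00 over all genes tested. With a correction for the trend with abundance, the log2FC was lower for FOS (1.26), MAFF (0.88), MAFK (0.76) and JUND (0.55). It was also lower for JUN (−0.12), JUNB (−0.25), FOSL1 (−0.17) and FOSL2 (−0.40), but not for FOSB (0.27) and BATF3 (0.46). Medians of these genes and of the related lists below were not recalculated with this correction. In these bulk libraries, a change of RNA per cell cannot be told apart from a change in the number of cells that express a gene. Levels are relative to the other transcripts of a library, so absolute amounts of RNA were not measured. The median over all genes depends on the scaling between libraries, and was −0.11 with library size alone.

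The promoters are shown because several of these genes, whether or not they rose, hold the same short element close to the start of transcription. The RefSeq promoter table (GRCh38.p14) matched 7 of the 10 genes, FOSL1, BATF3 and MAFK being without an entry. Each sequence is the 90 bases before the first listed start, read 5′ to 3′ on the strand of the gene. Capitals mark TGACGT on either strand, the 8-base element TGACNTCA, which overlaps TGACGT in TGACGTCA, and the TATA element TATAAA.
FOS (chr14:75278738-75278827, plus strand): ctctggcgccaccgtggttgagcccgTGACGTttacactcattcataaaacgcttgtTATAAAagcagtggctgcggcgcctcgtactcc
FOSB (chr19:45467906-45467995, plus strand): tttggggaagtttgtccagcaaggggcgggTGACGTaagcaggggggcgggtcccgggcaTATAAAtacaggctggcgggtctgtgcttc
FOSL2 (chr2:28392768-28392857, plus strand): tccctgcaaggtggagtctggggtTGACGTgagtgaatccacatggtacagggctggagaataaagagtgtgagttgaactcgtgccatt
MAFF (chr22:38201904-38201993, plus strand): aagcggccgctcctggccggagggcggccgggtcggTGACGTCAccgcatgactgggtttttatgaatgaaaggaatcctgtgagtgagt
JUN (chr1:58784048-58784137, minus strand): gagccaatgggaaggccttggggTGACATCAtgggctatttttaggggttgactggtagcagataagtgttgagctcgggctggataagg
JUND (chr19:18281623-18281712, minus strand): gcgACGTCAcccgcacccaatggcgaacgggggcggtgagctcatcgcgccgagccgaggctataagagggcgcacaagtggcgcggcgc
JUNB (chr19:12791396-12791485, plus strand): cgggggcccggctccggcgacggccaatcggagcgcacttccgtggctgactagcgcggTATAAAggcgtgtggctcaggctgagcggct
TGACGT, the core of the cAMP response element to which CREB, ATF and JUN proteins bind, began 64 bases before the start in FOS, 60 in FOSB, 66 in FOSL2 and 54 in MAFF, and JUND held it on the opposite strand, 87 to 82 bases before the start. In MAFF it was part of the full palindrome TGACGTCA. JUN held the related TGACATCA 67 to 60 bases before its start. In the same 90-base window, 3.95% of the 35116 promoters in the table held TGACGT and 4.02% held TGACNTCA. TATAAA was found in FOS, FOSB and JUNB, between 33 and 25 bases before the start, and in 4.68% of all promoters. Over the 250 bases before the start, JUND held a further TGACGTCA, 200 to 193 bases upstream. In this window neither the AP-1 element TGANTCA (6.57% of all promoters) nor the CArG box of the serum response factor (1.16%) was found in any of the 7 genes. Sequence further upstream or past the start was not searched, so the genes may hold these elements there. TGACGT was thus present in genes that rose (FOS, MAFF, JUND), in one that fell (FOSL2) and in one that did not pass (FOSB). The letters in these windows are a description only, and the second listed start of MAFF held none of these elements.

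**Figure D1:**
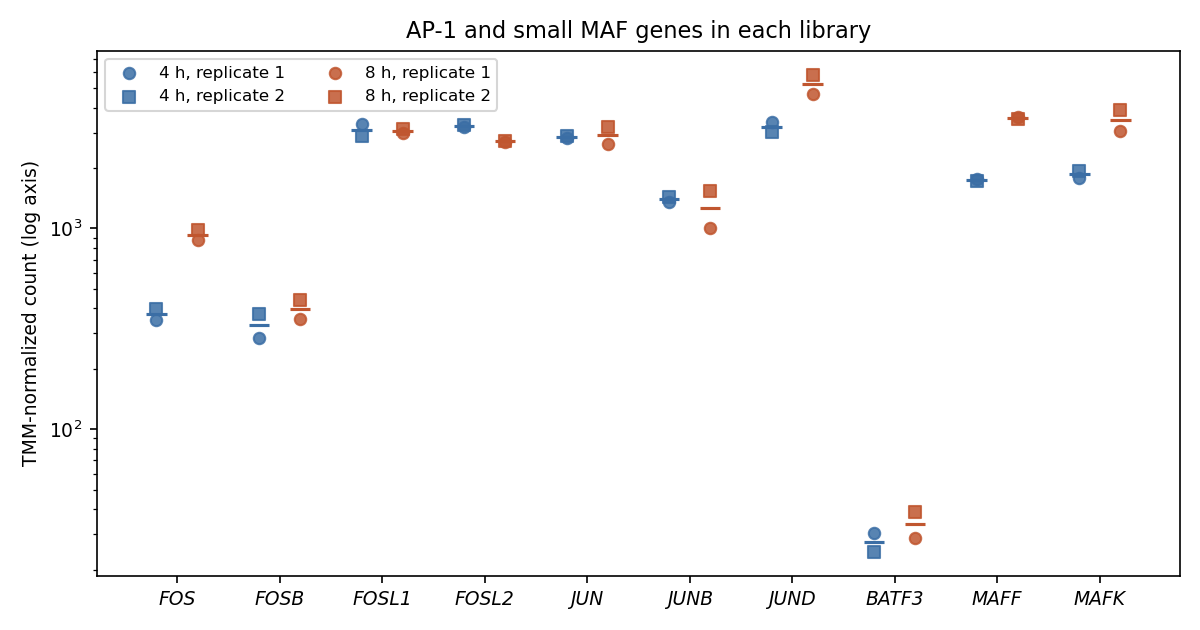
TMM-normalized count (log axis) of each gene in every library, with circles and squares for replicates 1 and 2, blue for 4 h and red for 8 h, and a bar at the mean of each time. FOS, JUND, MAFF and MAFK have both 8 h libraries above both 4 h libraries, FOSL2 has both below, and the other 5 genes overlap.

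The times did not overlap in 5 of the 10 genes, with the 8 h libraries above in 4 and below in 1. Among all genes tested this was so for 69.7%, with 34.8% above and 34.9% below.

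Libraries held 8064450 to 10324697 counts. Counts below are TMM-normalized, that is corrected for library size and composition and scaled to the mean library, unless called raw. Summed marker levels are CPM of the library total, without TMM. Of 10 markers of differentiated retinal pigment epithelium, 4 passed the filter on low counts. RPE65, BEST1, RLBP1 and TYRP1 had at most 7 raw counts in any library and TYR had none. MITF and OTX2, transcription factors of this lineage, had 132 to 882 raw counts. Of 9 markers of leukocytes, endothelium, neurons and muscle, 2 passed the filter (CD68 and SNAP25), and the summed level of the 9 was 61.4 to 62.6 CPM at 4 h and 70.5 to 75.6 CPM at 8 h. Most of this sum was CD68, with 575 to 654 raw counts per library. SNAP25 had 18 to 49 raw counts, and each of the others at most 8. CD68 rose (log2FC 0.39, edgeR adjusted p = 0.00298) and SNAP25 did not pass the test (−0.73, edgeR adjusted p = 0.0888). Of 7 epithelial and mesenchymal markers, 5 passed the filter, and the summed level of the 7 was 23600 to 23800 CPM at 4 h and 27400 to 28400 CPM at 8 h. VIM and FN1, which encode vimentin and fibronectin, rose by a log2FC of 0.36 each (edgeR adjusted p = 0.000623 and 6.48e-05). The keratin gene KRT18 fell (log2FC −0.51, edgeR adjusted p = 3.72e-05), and KRT8 and CDH2 did not pass. CDH1 and EPCAM had at most 1 raw count in any library. The part of these markers in the results was not tested.

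In the FOS family, FOS rose and FOSL2 fell, while FOSB and FOSL1 did not pass the test. FOS (NCBI Gene 2353, chr14:75745529-75748933, plus strand, hg19) had 350.0 and 398.0 normalized counts at 4 h, against 877.5 and 985.3 at 8 h. Both 8 h libraries lay well above both 4 h libraries. The mean was 374.0 ± 33.9 at 4 h and 931.4 ± 76.2 at 8 h (SD, n = 2 each). The log2FC of FOS was 1.31 ± 0.10 (standard error), with an edgeR adjusted p of 1.22e-08. Of all genes tested, 75 (0.597%) had a larger log2FC. It stayed between 1.21 and 1.41 over the alternatives and when any library was left out.

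FOSL2, which encodes FRA2, was the gene that fell. It lies on chr2:28615315-28640184 (plus strand, hg19) and had 3188 and 3282 normalized counts at 4 h, against 2693 and 2738 at 8 h. The libraries did not overlap and replicates lay close together. Its log2FC was −0.25 (standard error 0.07, edgeR adjusted p = 0.0099). The call was lost when either 4 h library was left out, with an adjusted p of 0.0501 without replicate 1 and 0.105 without replicate 2, the log2FC being −0.29 and −0.24. Over the alternatives with all libraries its adjusted p was 0.00027 to 0.0207.

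FOSL1, which encodes FRA1, did not pass the test. It had 3309 and 2899 normalized counts at 4 h, against 2998 and 3124 at 8 h (chr11:65659520-65668044, minus strand, hg19). The 8 h libraries lay between the 4 h libraries. Its log2FC was −0.02, with a 95% interval from −0.19 to 0.14, which holds no change as large as that of FOS or MAFF. FOSB (chr19:45971253-45978437, plus strand) had 284.5 and 373.5 at 4 h, against 352.8 and 439.8 at 8 h. In FOSB the replicates of a time were as far apart as the times, and its log2FC of 0.26 (95% interval −0.02 to 0.55) did not pass (edgeR adjusted p = 0.136). Its log2FC was 0.47 without replicate 2 at 4 h and 0.42 without replicate 1 at 8 h. With a library left out, it ran from 0.07 to 0.47.

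The makeup of the FOS family therefore shifted towards FOS. Levels of different genes were compared per length of the canonical transcript, as TMM-normalized CPM per kilobase. On this scale FOSL1 supplied 73.1% and 68.7% of the FOS family transcripts in the 4 h libraries, and 65.9% and 64.9% at 8 h. The share of FOS was 6.25% and 7.63% at 4 h, against 15.6% and 16.6% at 8 h. FOSL2 supplied 17.8% and 19.7% at 4 h, against 15.0% and 14.4% at 8 h, and FOSB at most 4.12% in any library. FOSL1 thus remained the main transcript of the family in all 4 libraries, whereas the share of FOS came to exceed that of FOSL2 at 8 h. The order of FOS and FOSL2 at 8 h depends on the canonical lengths, 2104 bases for FOS and 6713 for FOSL2. In counts not divided by length, FOSL2 stayed above FOS in every library. The sum of the family was 277.5 and 258.7 at 4 h, against 278.8 and 295.0 at 8 h. Within a library, the ratio of 2 genes does not depend on the scaling between libraries. The log2 ratio of FOSL1 to FOS counts was 3.24 and 2.86 at 4 h, against 1.77 and 1.66 at 8 h, a 2.52-fold lower ratio at 8 h. The log2 ratio of FOSL2 to FOS was 3.19 and 3.04 at 4 h, against 1.62 and 1.47 at 8 h, a 2.97-fold lower ratio. Neither ratio overlapped between the times, although an exact permutation test of 2 libraries against 2 cannot give a p below 0.33.

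**Figure D2:**
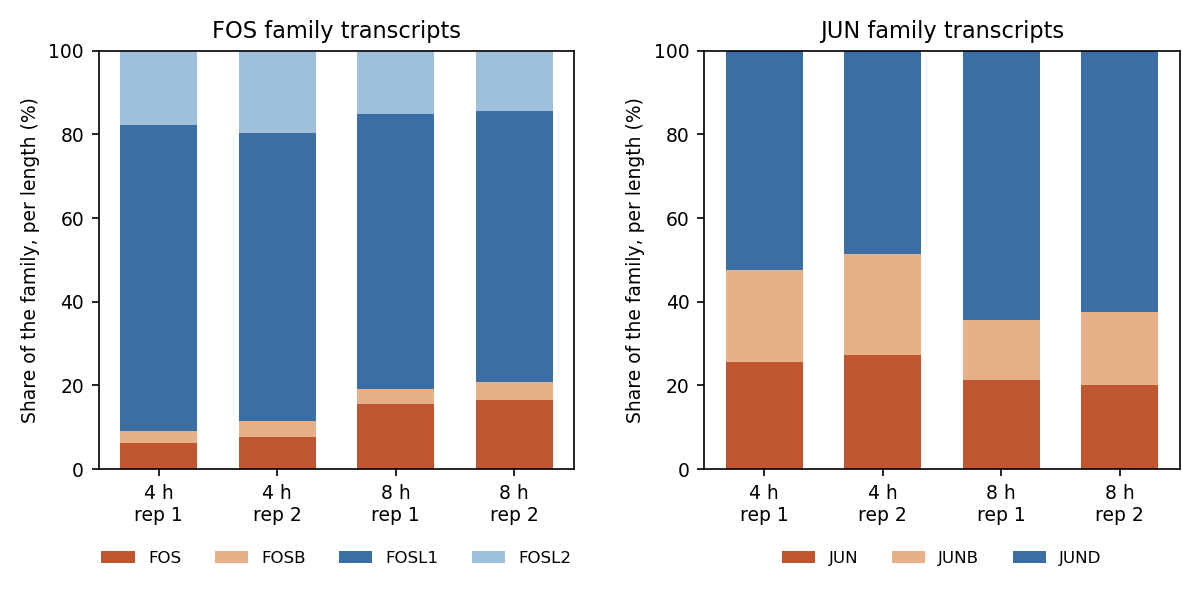
Stacked bars give the share (%) of each gene in the per-length level of the FOS family (left) and of the JUN family (right), with 1 bar per library. FOS grows from 6.25% and 7.63% at 4 h to 15.6% and 16.6% at 8 h, and JUND from 52.3% and 48.4% to 64.3% and 62.5%.

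In the JUN family, JUND rose while JUN and JUNB did not pass the test. JUND (NCBI Gene 3727, chr19:18390504-18392432, minus strand, hg19), a gene of a single exon, had 3401 and 3034 normalized counts at 4 h, against 4691 and 5837 at 8 h. Both 8 h libraries were above both 4 h libraries, but they differed between themselves by more than the 4 h libraries did. Its log2FC was 0.71 (standard error 0.09, edgeR adjusted p = 6.36e-06), and 588 genes (4.68%) had a larger one. JUND has the highest GC content of the 10 transcripts, 69.9%. After each library was corrected for its trend with transcript GC content, the log2FC of JUND was 0.42 (edgeR adjusted p = 2.95e-06), so that its size depended on this correction while its call did not. Its edgeR adjusted p was at most 6.53e-05 over the alternatives, and its log2FC was 0.54 to 0.86 with a library left out.

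JUN (chr1:59242517-59249720, minus strand), the founding member of the family, had 2821 and 2899 normalized counts at 4 h, against 2627 and 3183 at 8 h. The 4 h libraries lay between the 8 h libraries. Its log2FC was 0.02 (95% interval −0.16 to 0.20) and below 0 under library size alone (−0.09), so no direction is given. JUNB (chr19:12902300-12904129, plus strand) had 1354 and 1435 at 4 h, against 999.2 and 1532 at 8 h. The 8 h replicates of JUNB thus lay on opposite sides of both 4 h libraries. With all libraries its log2FC was −0.15 (95% interval −0.41 to 0.12, edgeR adjusted p = 0.381). It was −0.48 without replicate 2 at 8 h and 0.14 without replicate 1 at 8 h. With the correction for GC content it was −0.33 (edgeR adjusted p = 0.00121, against up to 0.789 over the other alternatives).

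JUND supplied 52.3% and 48.4% of the JUN family per length at 4 h, and 64.3% and 62.5% at 8 h. JUN went from 25.7% and 27.4% to 21.3% and 20.2%, and JUNB from 22.0% and 24.1% to 14.4% and 17.3%. The shares of all 3 genes lay apart between the times. The log2 ratio of JUND to JUN was 0.27 and 0.07 at 4 h, against 0.84 and 0.87 at 8 h, a 1.61-fold higher ratio at 8 h, whereas that of JUNB to JUN overlapped, at −1.06 and −1.01 against −1.39 and −1.06.

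**Figure D3:**
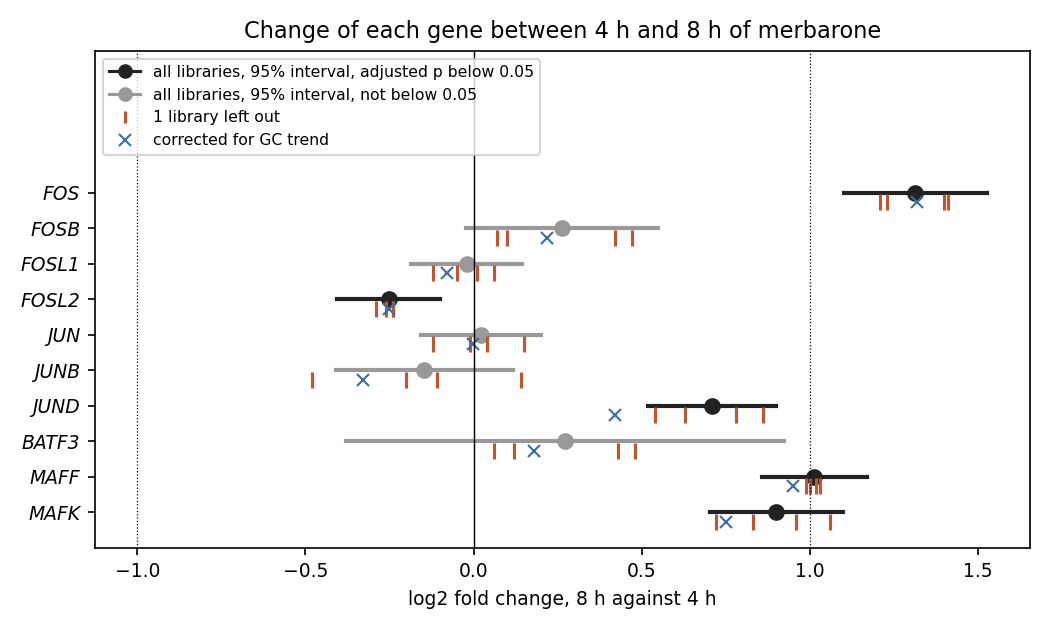
Log2 fold change of each gene, 8 h against 4 h, with its 95% interval (points and lines, black where the edgeR adjusted p was below 0.05), the values with 1 library left out (red ticks) and the value corrected for GC content (blue crosses). Dotted lines mark a log2FC of 1 and −1. FOS stays above 1 throughout, MAFF lies at that line, and the ticks of JUNB run from −0.48 to 0.14.

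Both small MAF genes rose. MAFF (NCBI Gene 23764, chr22:38596774-38612514, plus strand, hg19) had 1772 and 1726 normalized counts at 4 h, against 3569 and 3490.2 at 8 h. Its replicates were the closest among the genes that rose. Its log2FC was 1.01 (standard error 0.07, edgeR adjusted p = 6.39e-09), with 199 genes (1.58%) above it. The rise was called in every alternative, but its status as a DEG did not hold throughout. Its log2FC was 0.91 with library size alone, 0.88 with a correction for the trend with abundance and 0.95 with the GC correction. It was 0.99 without replicate 2 at 4 h, and did not exceed 1 without replicate 1 at 8 h. MAFK (NCBI Gene 7975, chr7:1570338-1582679, plus strand) had 1775 and 1938 at 4 h, against 3065 and 3873 at 8 h. The libraries did not overlap, and the 8 h replicates were further apart than those of MAFF. Its log2FC was 0.90 (standard error 0.09, edgeR adjusted p = 4.98e-07), and it was a DEG (log2FC 1.06) only without replicate 1 at 8 h. The log2 ratio of MAFF to MAFK overlapped between the times, at 0.00 and −0.17 against 0.22 and −0.15. The summed per-length level of both genes was 132.6 and 135.7 at 4 h, against 251.4 and 272.9 at 8 h.

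BATF3, which encodes a bZIP partner of JUN known from dendritic cells, had few reads. It had 34 and 27 raw counts at 4 h, against 28 and 31 at 8 h. Its log2FC of 0.27 had a 95% interval from −0.38 to 0.92, so a change of a size like that of JUND was not detectable at this depth.

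In level per length at 4 h, FOSL1 (190.0 ± 17.7) and JUND (174.0 ± 14.0) were the most abundant, followed by JUN (91.6 ± 1.76), JUNB (79.5 ± 3.26), MAFF (76.8 ± 1.41), MAFK (57.3 ± 3.56), FOSL2 (50.3 ± 1.04), FOS (18.5 ± 1.68), FOSB (9.09 ± 1.74) and BATF3 (3.43 ± 0.532; SD, n = 2 each). Neighbours that overlapped in this order were FOSL1 with JUND and JUNB with MAFF. At 8 h, JUND (285.0 ± 43.8) lay above FOSL1 (188.0 ± 5.46), and MAFF (155.0 ± 2.46) above MAFK (107.0 ± 17.6) and JUN (93.0 ± 12.6), of which MAFK and JUN overlapped. JUNB (72.1 ± 21.5), which overlapped JUN, came before FOS (46.2 ± 3.78), FOSL2 (42.2 ± 0.501), FOSB (11.0 ± 1.70) and BATF3 (4.19 ± 0.872; SD, n = 2 each). In the order of means, JUND, MAFF, MAFK and FOS thus stood higher at 8 h than at 4 h. The step of JUND over FOSL1 is not resolved, since they overlapped at 4 h. That of FOS over FOSL2 depends on the canonical lengths. Reads across splice junctions were lost in mapping, which lowers the level of genes with several exons and not that of JUN, JUNB and JUND, whose canonical transcripts have 1 exon.

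Replicate 2 at 8 h lay above replicate 1 in most of these genes. In log2-CPM, replicate 2 at 8 h exceeded replicate 1 by 0.62 for JUNB, 0.40 for BATF3, 0.34 for MAFK, 0.32 for JUND and FOSB, 0.28 for JUN and 0.17 for FOS, and differed by at most 0.06 for FOSL1, FOSL2 and MAFF. The corresponding difference at 4 h was 0.39 for FOSB, 0.18 for FOS, 0.13 for MAFK, 0.08 for JUNB and 0.04 for JUN and FOSL2. It was −0.04 for MAFF, −0.16 for JUND, −0.19 for FOSL1 and −0.30 for BATF3. For FOS and FOSB it was thus at least as large at 4 h as at 8 h. Transcripts of the 10 genes are rich in GC, from 52.8% in FOS to 69.9% in JUND. Among all genes with a GC value (97.9% of those tested), split into 5 equal groups by GC content, the median difference of the 8 h replicates was 0.144 in the group with the highest content, 58.2% to 75.6%, and −0.045 in the group with the lowest. The corresponding median difference of the 4 h replicates was 0.053 in the highest group and −0.118 in the lowest. The excess of BATF3 at 8 h rests on 28 and 31 raw counts, and its difference at 4 h had the opposite sign. For BATF3, JUNB, MAFK and JUND, the excess at 8 h was larger than the median of the highest group. FOSL1 (0.06) and MAFF (−0.03), which belong to that group as well, lay below its median. The log2FC of JUND and MAFK was 0.42 and 0.75 with the correction for GC content, and both passed the test. Without replicate 2 at 8 h it was 0.54 and 0.72.

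**Figure D4:**
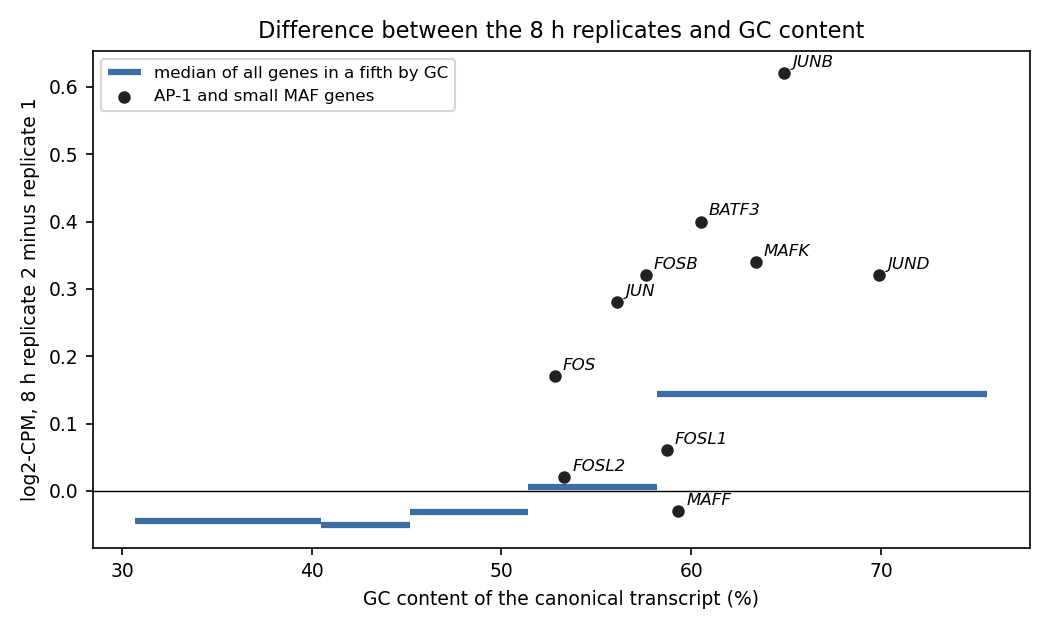
Log2-CPM of 8 h replicate 2 minus replicate 1 against the GC content (%) of the canonical transcript, for the 10 genes (points) and as the median of all genes in each of 5 equal groups by GC content (blue lines). JUNB, at 0.62, lies highest, and MAFF, FOSL2 and FOSL1 lie near 0.

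For 4 genes the annotation places another counted gene on the opposite strand, and the use of strand in counting is not given in the sources used here. FOSB lies within the span of ERCC1, which had 634 to 812 raw counts per library, more than FOSB itself. JUNB lies within that of HOOK2 (45 to 91 raw counts), MAFF shares 14012 bases with PLA2G6 (88 to 112 raw counts) and MAFK shares 809 with TMEM184A (3 to 18 raw counts). The counts of these last 3 neighbours were small beside those of JUNB, MAFF and MAFK, and the value of FOSB is uncertain.

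Other bZIP genes of the network were described from a list of 19, of which 13 passed the filter. Of these, 5 rose, 1 fell and 7 did not pass the test, or 46.2% called against 38.8% of all genes tested, with a median log2FC of 0.14. The other small MAF gene, MAFG, rose from 1851.3 and 2066.1 normalized counts at 4 h to 2934.2 and 2999.4 at 8 h (log2FC 0.60, edgeR adjusted p = 7.82e-06). JDP2, a repressor that dimerizes with JUN, had 795.1 and 712.6 at 4 h, against 1171.0 and 1235.1 at 8 h (log2FC 0.67, edgeR adjusted p = 7.79e-06). ATF3, a stress-induced partner of JUN, fell from 3918.9 and 4108.5 to 2918.9 and 2591.9 (log2FC −0.54, edgeR adjusted p = 2.18e-05). The libraries of the times lay apart for all 3 genes. ATF4, NFE2L1 and NFE2L2, which encodes NRF2, rose by log2FC of 0.32, 0.22 and 0.20, and MAFA, the next lowest adjusted p among genes below 0, did not pass (0.145) with a mean of 10.4 and 4.8 normalized counts. BATF had no raw count in any library, which allows up to 3 raw counts per library.

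Among 21 upstream regulators, 10 rose, 3 fell and 8 did not pass, or 61.9% called against 38.8% of all genes tested, with a median log2FC of 0.28. FBXW7, a ubiquitin ligase component that targets JUN for degradation, had the lowest adjusted p, with a log2FC of 0.80 (edgeR adjusted p = 5.03e-05). The ternary complex factor ELK1, which acts with SRF on the FOS promoter, followed with 0.54 (edgeR adjusted p = 0.000157), and SRF itself rose by 0.46. MAPK14, the p38 alpha kinase, and RPS6KA3, the ERK-activated kinase RSK2, fell, with log2FC of −0.41 and −0.48 (edgeR adjusted p = 0.00249 and 0.00271). COP1, which also directs the degradation of JUN, fell by 0.44 on the log2 scale. None of the 21 was a DEG.

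Of 20 textbook targets of AP-1, 15 passed the filter. Among them 10 rose, 3 fell and 2 did not pass, with a median log2FC of 0.26. This was 86.7% called against 38.8% of all genes tested (19.9% higher and 18.8% lower). The number called was 13, but 10 with DESeq2, 11 with library size alone and 14 with the replicate block or the GC correction. DESeq2 also called fewer of all genes, 1800 higher and 1503 lower against 2500 and 2367. The share called among genes of similar count was not calculated for this or the other lists. IL6, an inflammatory cytokine, was the DEG that rose, from 109.5 and 131.5 normalized counts at 4 h to 335.5 and 374.0 at 8 h (log2FC 1.56, edgeR adjusted p = 1.17e-07). IL11, a cytokine of the same family, rose by a log2FC of 0.89, and PLAUR, the urokinase receptor, by 0.57 (edgeR adjusted p = 2.1e-07 and 4.33e-05). CCL2, a monocyte chemokine, was the DEG that fell, from 606.6 and 495.9 to 273.1 and 273.4 (log2FC −1.01, edgeR adjusted p = 2.23e-06). CCND1, which encodes cyclin D1, and PLAU, urokinase, fell as well, with log2FC of −0.57 and −0.30 (edgeR adjusted p = 3.58e-06 and 0.00229). The 5 genes removed by the filter were all matrix metalloproteinases, MMP1, MMP3, MMP9, MMP10 and MMP13, with at most 2 raw counts in any library.

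Of 16 targets of CNC and small MAF dimers, all passed the filter, 8 rose, 1 fell and 7 did not pass, or 56.2% called against 38.8% of all genes tested, with a median log2FC of 0.26. HMOX1, which encodes heme oxygenase 1, had 740.4 and 858.5 normalized counts at 4 h, against 2392.2 and 2179.4 at 8 h (log2FC 1.52, edgeR adjusted p = 5.59e-10). SLC7A11, the cystine transporter, rose by a log2FC of 1.45 and OSGIN1 by 1.43 (edgeR adjusted p = 2.58e-09 and 4.99e-06), and these 3 were DEGs. TXNRD1, thioredoxin reductase, and SRXN1, sulfiredoxin, rose by 0.89 and 0.50 (edgeR adjusted p = 2.53e-07 and 0.000184). PRDX1, a peroxiredoxin, fell by 0.41 on the log2 scale (edgeR adjusted p = 0.00101), and NQO1 (log2FC −0.06), GCLM (0.22) and GCLC (0.25) did not pass.

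**Figure D5:**
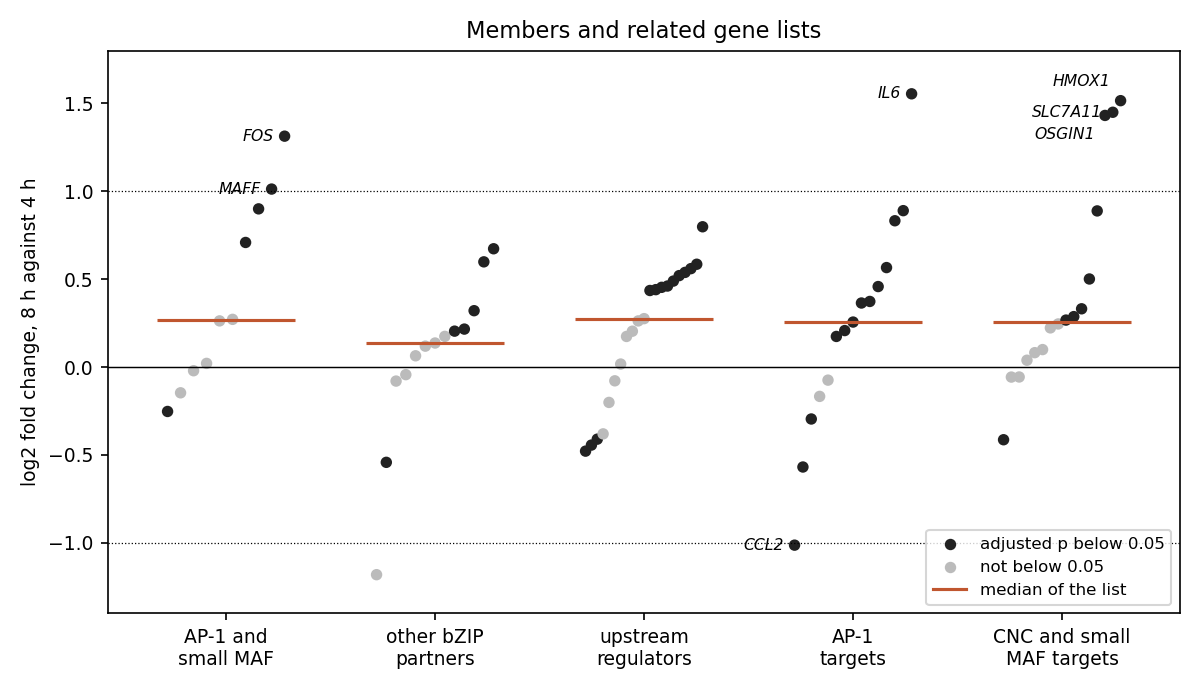
Log2 fold change, 8 h against 4 h, of each tested gene of the 10 genes and of 4 related lists, black where the edgeR adjusted p was below 0.05 and grey where it was not, with the median of each list as a red line. DEGs are named, and dotted lines mark a log2FC of 1 and −1. The list medians lie between 0.14 and 0.28, and genes that fell are present in every list.

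The genes whose pattern over the 4 libraries was most like that of each DEG were sought among 9395 other genes with a mean raw count of at least 100. Likeness was the root mean square difference of log2-CPM, each gene being centred on its own mean. For FOS, the nearest were NR4A1, an immediate-early nuclear receptor gene, at 0.042, ITPRIP at 0.043 and FOXK1 at 0.044, with 17 genes within 0.1. NR4A1 had a mean of 361.9 normalized counts at 4 h and 906.8 at 8 h, a log2FC of 1.32. For MAFF, the nearest were MICALL1 at 0.019, GAL3ST4 at 0.020 and EIF4EBP1 at 0.035, with 89 genes within 0.1. With 4 libraries in 2 groups, many genes come this close, and the ranking is a description.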

How the data were processed

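Polyadenylated RNA of 4 libraries was sequenced as single reads. Per the labels and the methods of the study, the authors mapped reads to hg19 with Bowtie 1.2.0, discarded those that mapped more than once, and deposited the raw counts of each gene under its NCBI Gene identifier. The annotation and the counting tool are not given in the sources used here. Symbols came from the RefSeq table of GRCh38.p14, which named 23308 of the 23459 genes, and hg19 positions, lengths and GC content from GENCODE lifted to GRCh37.

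Genes were retained where at least 2 libraries exceeded a CPM of 1 (12559) and counts were normalized by TMM. The quasi-likelihood test of edgeR 4.0.16 (R 4.3.3) compared 8 h with 4 h on all 4 libraries, with Benjamini-Hochberg adjustment over all retained genes. Standard errors are the log2FC divided by the square root of F. Limma-Voom (limma 3.58.1), which the study used, DESeq2 1.42.0, other scalings and filters, a correction for the trend with abundance, a replicate block and leaving out each library were alternatives, and the correction for GC content was added after seeing the data. The main test, Limma-Voom, DESeq2, both trend corrections, the replicate block and leaving out replicate 1 at 4 h were tried on simulated data. These data held no trend with GC content or abundance, so they cannot show whether the corrections remove one.

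The 10 genes and the lists were chosen with earlier results of these data known. From each related list, DEGs and the 2 lowest adjusted p-values in each direction are named. SRF, COP1, ATF4, NFE2L1, NFE2L2, GCLC and GCLM were added after their values were seen, as were the genes named for having few counts. The biological coefficient of variation was 6.52%. With 2 libraries per time, the p-values borrow their spread from all genes, and it may be technical in part.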

Additional observations from a re-analysis of the deposited data

How the results depend on the processing

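The calls of FOS, MAFF, MAFK and JUND, and that of FOSL2, held in all 9 alternatives. With any 1 library left out, the log2FC was 1.21 to 1.41 for FOS and 0.99 to 1.03 for MAFF. It was 0.72 to 1.06 for MAFK and 0.54 to 0.86 for JUND. Such a fit holds 1 library at 4 h or at 8 h, so its calls take no account of the spread between libraries of that time. The number of the 10 genes that passed was 5 or 6 in the alternatives and 4 to 6 with a library left out. The number of DEGs among them was 1 rather than 2 (FOS alone) with library size alone, with the correction for abundance and with that for GC content, and 1 to 2 with a library left out (FOS alone without replicate 2 at 4 h, FOS and MAFK without replicate 1 at 8 h). Scaling by library size alone moved the median log2FC of all genes to −0.11 and the share of higher genes among DEGs from 27.2% to 16.3%, and the abundance correction moved that share to 43.0%. At the adjusted p alone, higher genes were 51.4% of calls, and 34.0% with library size alone. The other bZIP genes called were 6, and 3 with the abundance correction, with 3 to 7 when a library was left out. JUN changed sign without being called, to −0.09 with library size alone, −0.12 with the abundance correction, −0.0018 with the GC correction, and its range with a library left out was −0.12 to 0.15. With a library left out, JUN was −0.01 without replicate 1 at 4 h, FOSL1 ran from −0.12 to 0.06, with 0.01 without replicate 1 at 8 h, and JUNB ran from −0.48 to 0.14. With a library left out, the 8 h minus 4 h difference of the log2 ratio of MAFF to MAFK ran from −0.07 to 0.30. The causes of these changes were not tested.

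The times share replicate numbers. Around the mean of each time, libraries with the same number deviated with a correlation of 0.0484 across 12559 genes, so the numbers were not taken to pair the libraries. This does not exclude pairing. The replicate block called more genes, 2829 higher and 2664 lower, against 2500 and 2367 without it. With the replicate block 6 of the 10 genes passed, FOSB being added with a log2FC of 0.27 (edgeR adjusted p = 0.0405).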
